A study of Mus musculus with 14 samples.

Results

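Nap1l5 and Herc3 form an imprinted locus on mouse chromosome 6 (mm10), in which the short gene Nap1l5 lies inside the long gene Herc3. The RefSeq body of Herc3 (gene 73998) runs from 58831455 to 58920398 and is 88944 bp long, and that of Nap1l5 (gene 58243) runs from 58905233 to 58907126 on the minus strand and is 1894 bp long. H3K27me3 peaks of the shared peak table that lie within 20 kb of either gene body were taken as the locus, which gave 3 of 74458 peaks. The locus was picked because its Nap1l5 peak was lost in cells with the Hmx1 deletion, so levels in that comparison are given as a description and carry no test.

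H3K27me3 was mapped by Cut&Tag, in which the transposase Tn5 is tethered to antibody-bound chromatin, in mouse embryonic stem cells (mESCs) that carry a CRISPR deletion of a Polycomb loop anchor. The cells were G4 mESCs, a hybrid of the 129/Sv and C57BL/6 strains, kept with LIF on CD1 feeder cells, and each deletion was homozygous. The Hoxa deletion (Hoxa2 to Hoxa13, chromosome 6) had 3 libraries, the Wnt6 deletion (chromosome 1) had 2 and the Hmx1 deletion (chromosome 5) had 2, with 6016500 to 36563541 counts in peaks per library. Unedited cells were not analysed here, so every group carries a deletion, and the study describes clones, so the effect of a deletion and the state of a clone cannot be told apart. Nothing in the labels says that replicates came from separate cultures, and p-values then measure only the spread between these libraries, which may be technical. Each deletion was seen in its own libraries: peaks over the deleted gene bodies kept at most 0.160% of their level elsewhere for Hoxa (42 peaks), 3.18% for Wnt6 (9 peaks) and 0.403% for Hmx1 (7 peaks). H3K27me3 does not measure expression, and of the 7 mESC genes checked Nanog and Tdgf1 had no peak. The highest Pou5f1 and Sox2 peaks lay at percentiles 12.4 and 4.07 of all peaks per kb. The Zfp42 peak lay at 45.1, and the highest Klf4 and Esrrb peaks at 81.5 and 95.9.

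Genomic imprinting is the silencing of a gene on the copy inherited from one parent, and at many imprinted genes it rests on DNA methylation laid down in the germ line. Nap1l5, which encodes a nucleosome assembly protein-like protein, is known as a retrogene expressed from the paternal copy, with its CpG-rich promoter methylated on the maternal copy. Herc3, which encodes a HECT-type ubiquitin ligase, hosts it in an intron. H3K27me3 is the repressive mark of Polycomb repressive complex 2 and is found mostly at CpG-rich DNA that lacks methylation. Counts here pool both parental copies, so a level says nothing of which copy carried the mark.

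The Nap1l5 promoter is shown because the whole window lies within the lost peak, beside those of other imprinted genes that sit inside a host gene. Windows of 250 bases before to 50 bases after the annotated start were read from RefSeq (GRCm38.p6), each 5′ to 3′ on the strand of its gene. They are chr6:58907077-58907376 (minus strand) for Nap1l5, chr2:152686898-152687197 (plus) for Mcts2, chr2:157559828-157560127 (plus) for Nnat and chr11:22971755-22972054 (plus) for Zrsr1. Capitals mark TGCCGC, the hexamer that the imprinting factor ZFP57 binds when it is methylated, searched on both strands.
Nap1l5: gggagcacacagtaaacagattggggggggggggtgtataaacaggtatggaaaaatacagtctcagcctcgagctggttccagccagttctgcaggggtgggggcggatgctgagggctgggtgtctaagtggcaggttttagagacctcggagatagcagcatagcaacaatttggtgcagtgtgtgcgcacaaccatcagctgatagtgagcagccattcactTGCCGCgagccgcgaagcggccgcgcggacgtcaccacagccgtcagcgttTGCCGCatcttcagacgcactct
Mcts2: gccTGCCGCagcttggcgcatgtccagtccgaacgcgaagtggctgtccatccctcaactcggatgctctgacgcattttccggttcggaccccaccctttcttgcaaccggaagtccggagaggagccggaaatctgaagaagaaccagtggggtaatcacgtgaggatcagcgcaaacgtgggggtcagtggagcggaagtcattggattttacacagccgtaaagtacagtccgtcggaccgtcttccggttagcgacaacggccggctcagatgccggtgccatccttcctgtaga
Nnat: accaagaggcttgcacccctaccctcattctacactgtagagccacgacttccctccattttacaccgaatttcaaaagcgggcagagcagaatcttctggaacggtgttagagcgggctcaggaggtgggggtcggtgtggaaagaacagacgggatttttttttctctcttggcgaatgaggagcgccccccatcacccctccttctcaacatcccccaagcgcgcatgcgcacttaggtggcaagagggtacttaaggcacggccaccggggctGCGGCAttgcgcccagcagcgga
Zrsr1: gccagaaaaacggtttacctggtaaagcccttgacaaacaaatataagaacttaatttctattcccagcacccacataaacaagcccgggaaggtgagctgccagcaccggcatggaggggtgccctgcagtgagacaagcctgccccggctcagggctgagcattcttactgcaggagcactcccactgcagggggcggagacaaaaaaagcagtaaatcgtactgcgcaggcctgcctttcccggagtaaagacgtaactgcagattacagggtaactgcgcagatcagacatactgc
The Nap1l5 window held 2 TGCCGC matches, which begin at bases 227 and 278 of the window, on either side of the start. Of 32851 promoter windows of this length, 11.6% held at least 1 match and 1.53% at least 2. Mcts2 and Nnat had 1 match each, and Zrsr1 had 0 in these windows. The Nap1l5 window had 17 CpG, a number that 31.4% of windows reach, against a median of 7 over all windows. Its GC content was 57.7%. The Herc3 window of the same source begins at 58833450, inside the gene body and outside the Herc3 peak, so it is not the marked 5′ end and is not shown. The hexamer was chosen after these sequences were seen, and a match describes letters and not a bound site.

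The Nap1l5 peak (58906606 to 58907662, 1056 bp) covered the Nap1l5 start, with 536 bp before it and 520 bp after it, and was nearly empty in the Hmx1 deletion. Levels are counts per 1000000 counts in peaks (CPM), scaled by TMM. In the Hmx1 deletion its level was 0.338 and 0.315 CPM, from 2 and 8 counts. In the Hoxa deletion it was 23.7, 29.2 and 25.6 CPM, from 202, 763 and 397 counts. In the Wnt6 deletion it was 18.4 and 17.6 CPM, from 179 and 673 counts. Both Hmx1 libraries were low and did not overlap any of the other 5, which is the pattern the locus was chosen for. All Hoxa libraries lay above both Wnt6 libraries, an order that 15.9% of tested peaks showed. Group means were 0.326 ± 0.0164 CPM (SD, n = 2) for Hmx1, 26.2 ± 2.75 (SD, n = 3) for Hoxa and 18.0 ± 0.591 (SD, n = 2) for Wnt6. The fitted log2 fold change of the Hmx1 deletion against the others pooled was -6.13. This was the 1 member of 3 past the call rule of that comparison (absolute log2 fold change over 1 and adjusted p under 0.05) in the lower direction, a rule that 0.0242% of tested peaks passed (0.0282% in either direction); because the locus was chosen on this value, nothing is read from the count.

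**Figure D1:**
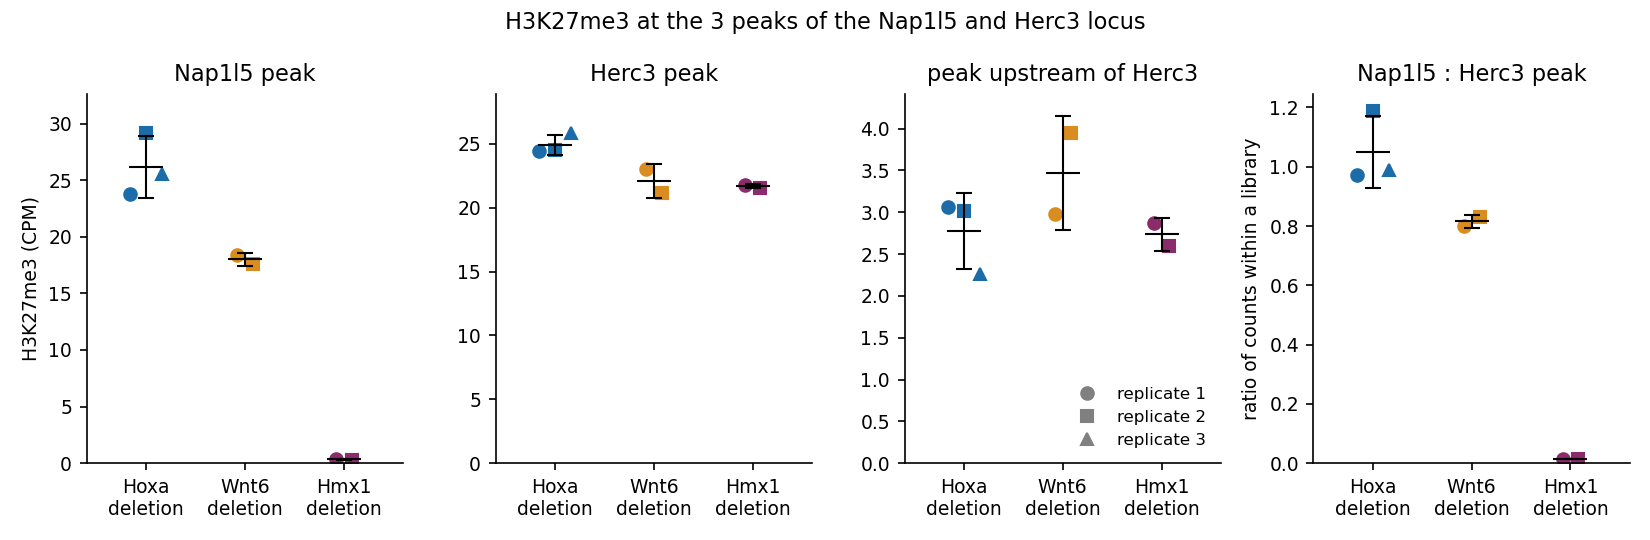
H3K27me3 in CPM at the 3 peaks of the locus (first 3 panels) and the ratio of Nap1l5 to Herc3 peak counts within a library (last panel). Points are libraries, shaped by replicate number, and bars are the mean ± SD of each deletion. The Nap1l5 peak sits at 0.315 to 0.338 CPM in the Hmx1 deletion and at 17.6 to 29.2 CPM elsewhere, while the Herc3 peak sits between 21.1 and 25.8 CPM in all libraries.

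Depth allowed the residual level to be bounded. With exact intervals at the 95% level, which cover counting error only, the 2 counts of Hmx1 replicate 1 stand for 0.242 to 7.22 counts and the 8 counts of replicate 2 for 3.45 to 15.8. Relative to the other 5 libraries the residual was 1.50% (0.181 to 5.42%) and 1.40% (0.602 to 2.76%). With both libraries summed it was 1.42% (0.678 to 2.61%), or 70.6 times lower (38.3 to 148 times). The libraries gave like values at depths of 6016500 and 25798208 counts, and counts were few but above 0 in both.

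Set against the deleted DNA, the residual was of the same order per kb of peak, but higher as a share of the level elsewhere. That share was 1.42% at the Nap1l5 peak with both libraries summed, against 0.227 to 0.403% over the peaks of the deleted Hmx1 gene. Per kb of peak the residual was 0.320 and 0.298 CPM in the 2 Hmx1 libraries. There the peaks of the deleted Hmx1 gene summed to 0.171 to 0.304 CPM per kb, and the median over all peaks was 8.14 and 7.66 CPM per kb. In Hmx1 replicate 2, the deeper of the 2, 12 of 74458 peaks lay below the Nap1l5 peak per kb, and 10 of these were in the stretch of peaks emptied by the deletion on chromosome 5 (35382872 to 35401827, 11 peaks). In replicate 1, 179 peaks lay below it, 9 of them in that stretch. In the other 5 libraries the Nap1l5 peak was at percentiles 79.9 to 88.3 of all peaks. The amount of DNA at the peak was not measured, so loss of the mark and loss of the DNA that carries it cannot be told apart in this table.

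No other peak of comparable level outside the deleted stretch was as low. Of 17183 peaks with at least 10 CPM in the other 5 libraries and outside the Hmx1 stretch, the Nap1l5 peak was the 1 peak under 10% of their level, at 1.43%. In all, 3 peaks were under 25%. The other 2 adjoin the deleted stretch on chromosome 5: 35402378 to 35403142 kept 15.7% and 35404252 to 35405192 kept 17.9%. The median over the 17183 peaks was 101%, and the Herc3 peak kept 91.1%.

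**Figure D2:**
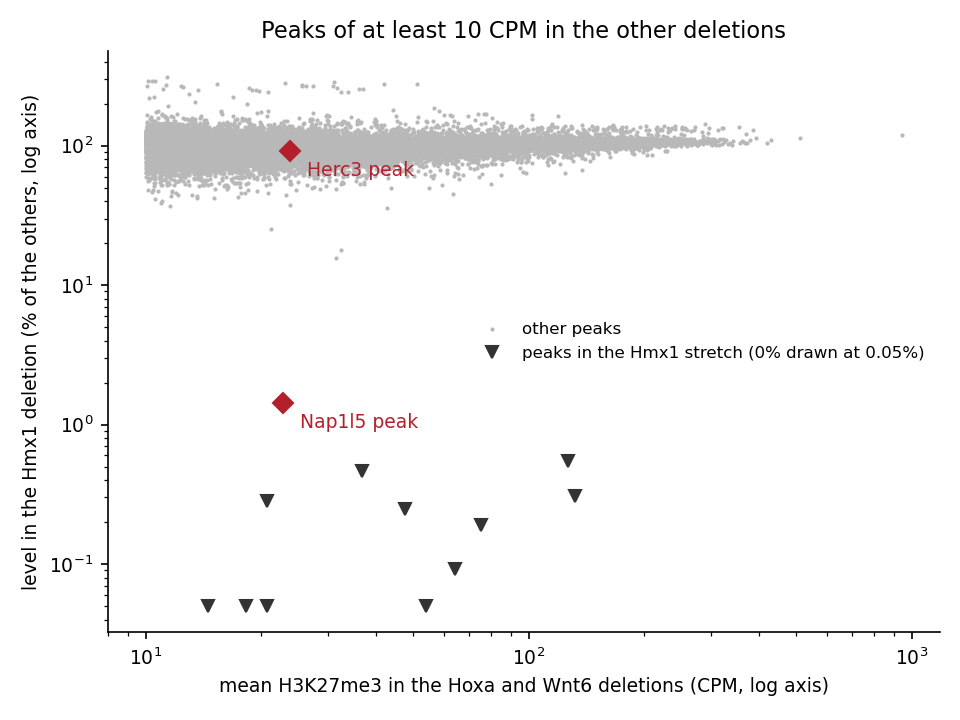
Each point is a peak of at least 10 CPM, placed by its mean level in the Hoxa and Wnt6 deletions (x axis, CPM, log scale) and its level in the Hmx1 deletion as a percentage of that (y axis, log scale). The Nap1l5 peak lies at 1.43%, between the cloud of other peaks and the peaks of the deleted Hmx1 stretch (triangles), and the Herc3 peak lies at 91.1%, within the cloud.

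Herc3 kept its mark. The Herc3 peak (58830957 to 58832074, 1117 bp) overlaps the 5′ end of the gene, 74.53 kb from the Nap1l5 peak, with no peak between them. It had 21.8 and 21.6 CPM in the Hmx1 deletion, 24.5, 24.5 and 25.8 CPM in the Hoxa deletion and 23.1 and 21.1 CPM in the Wnt6 deletion. The Hmx1 libraries lay within the range of the Wnt6 libraries and below all Hoxa libraries. The share of all peaks with Hmx1 below every Hoxa library was not counted. Means were 21.7 ± 0.166 (SD, n = 2), 24.9 ± 0.780 (SD, n = 3) and 22.1 ± 1.35 CPM (SD, n = 2), and the log2 fold change of Hmx1 against the others was -0.13. The small peak upstream of Herc3 (58829888 to 58830210, 322 bp) had 2.87 and 2.60 CPM in the Hmx1 deletion, 3.06, 3.02 and 2.26 CPM in the Hoxa deletion and 2.98 and 3.95 CPM in the Wnt6 deletion. Its Hmx1 libraries lay inside the range of the Hoxa libraries, with a log2 fold change of -0.20 against the others. Per kb of peak, the Nap1l5 and Herc3 levels were near each other where Nap1l5 was marked, at 24.8 and 22.3 CPM per kb in the Hoxa deletion and 17.0 and 19.8 in the Wnt6 deletion, and far apart in the Hmx1 deletion, at 0.309 and 19.4.

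The ratio of Nap1l5 to Herc3 counts within a library does not depend on how libraries are scaled. It was 0.0155 and 0.0146 in the Hmx1 deletion, 0.971, 1.19 and 0.990 in the Hoxa deletion, and 0.799 and 0.832 in the Wnt6 deletion. Means were 0.0151 for Hmx1, 1.05 ± 0.120 (SD, n = 3) for Hoxa and 0.815 ± 0.0232 (SD, n = 2) for Wnt6. The Hoxa and Wnt6 ratios did not overlap, and their means differed by 0.234. The exact permutation test over the 10 splits gave p = 0.2 (two-sided, the smaller tail doubled) and 0.1 by the absolute difference, each the smallest its rule allows, so the ratio cannot pass a threshold of 0.05 here.

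Whether the locus also differed between the Hoxa and Wnt6 deletions was tested, since the choice of the locus rested on the Hmx1 libraries. The Nap1l5 peak was higher in the Hoxa deletion by 0.56 on the log2 scale (SE 0.138), which is 1.47-fold, with an adjusted p of 0.00662 in edgeR's quasi-likelihood test with Benjamini-Hochberg adjustment over 74441 peaks. The Herc3 peak differed by 0.19 (SE 0.126, edgeR adjusted p = 0.502) and the peak upstream of it by -0.37 (SE 0.272, edgeR adjusted p = 0.547). With the fold minimum, 0 of the 3 peaks were called by edgeR or DESeq2, against 1.23% of all tested peaks called by edgeR. An unadjusted p under 0.05 was found in edgeR for 1 of the 3, the Nap1l5 peak, and for 16.6% of all tested peaks. Without it, 1 of 3 passed, the Nap1l5 peak, against 5.2% of tested peaks in either direction and 2.39% in the higher direction; 15.9% of tested peaks had every Hoxa library above every Wnt6 library. The Nap1l5 difference lost significance without any of 3 libraries: it was 0.46 (edgeR adjusted p = 0.102) without Hoxa replicate 2, 0.58 (0.0512) without Wnt6 replicate 1 and 0.52 (0.181) without Wnt6 replicate 2. The locus lies 6.632 Mb from the Hoxa stretch on the same chromosome, where the median peak differed by 0.03 between these deletions. On chromosome 6, edgeR called 3.09% of 3978 tested peaks, those of the Hoxa stretch included, against 1.23% of all tested peaks. Without the fold minimum, 187 of the 3978 passed as higher in Hoxa and 95 as lower, against 1782 and 2092 of 74441. With the median of each chromosome removed the Nap1l5 difference was 0.53 (edgeR adjusted p = 0.0243).

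Around the locus the mark was sparse and differed little between deletions. The 13 peaks from 20 kb to 1 Mb beyond the gene bodies had log2 fold changes between -0.80 and 0.82 in the Hmx1 comparison, with a median of 0.01, and between -0.77 and 0.40 for Hoxa against Wnt6, with a median of 0.00. Calls by edgeR or DESeq2 numbered 0 in both comparisons. Over all tested peaks edgeR called 0.0282% for Hmx1 and 1.23% for Hoxa against Wnt6, so 0 of 13 says little about either comparison. An unadjusted edgeR p under 0.05 was found for 1 of 13 in each, against 8.95% of all tested peaks for Hmx1 and 16.6% for Hoxa against Wnt6. The nearest peak on the side of Abcg2, which encodes a drug efflux transporter, lay 194 kb from the Nap1l5 start and had means of 0.846, 1.63 and 2.50 CPM in the Hmx1, Hoxa and Wnt6 deletions. On the other side the nearest peak lay in Fam13a, 109 kb away, with 3.63, 3.38 and 2.96 CPM. The strongest neighbour, at the start of Gprin3, had 44.2, 42.6 and 46.3 CPM. The low level at Nap1l5 was thus bounded on one side by the Herc3 peak and on the other by the Fam13a peak, which had means of 21.7 and 3.63 CPM in the Hmx1 deletion.

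**Figure D3:**
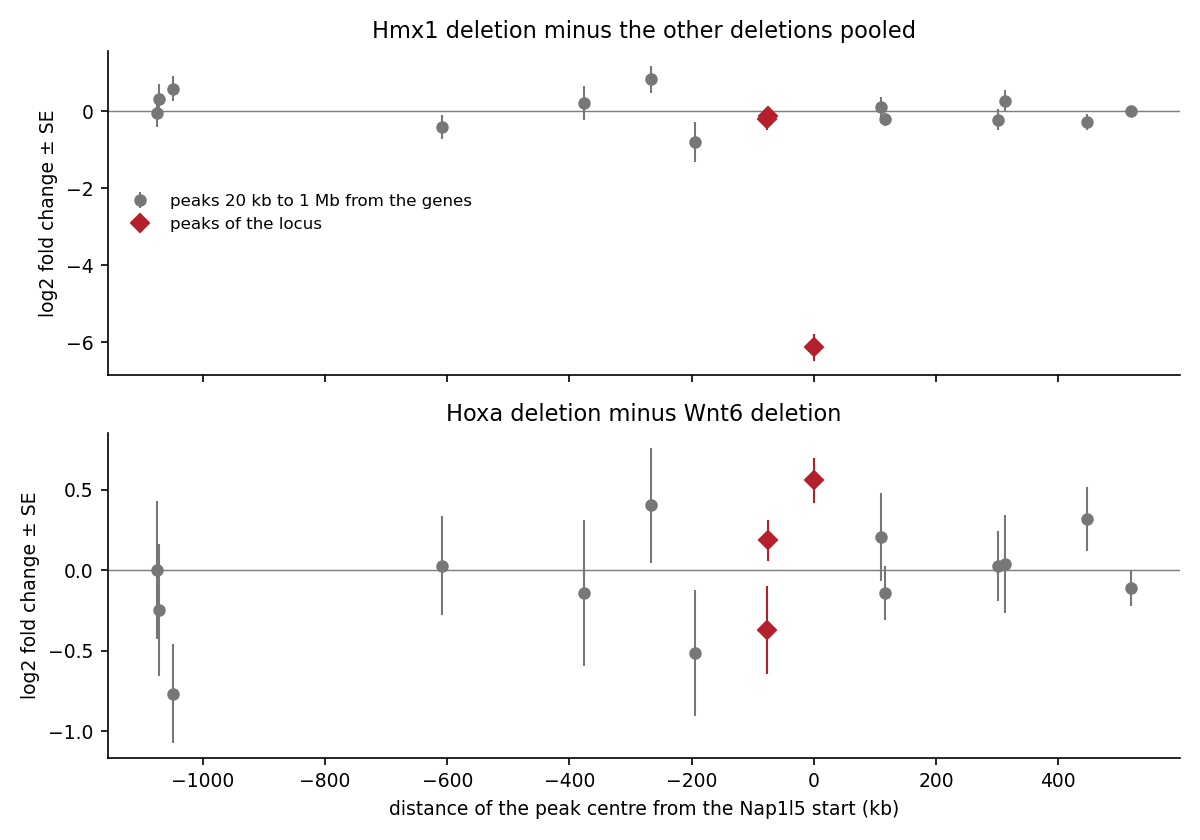
Log2 fold change with its SE at the 3 peaks of the locus (diamonds) and at 13 peaks within 1 Mb of the gene bodies (circles), by distance of the peak centre from the Nap1l5 start in kb. In the upper panel (Hmx1 deletion against the others) the Nap1l5 peak is at -6.13 and the neighbours lie between -0.80 and 0.82; in the lower panel (Hoxa against Wnt6) the Nap1l5 peak is at 0.56, on an axis with a narrower range.

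Other imprinted genes that lie inside a host gene were compared through their own peaks, where they had any, and those of their hosts. The list held Mcts2 in H13, Zrsr1 in Commd1, Nnat in Blcap, Peg13 in Trappc9 and the internal transcript of Inpp5f, with 16 peaks in all. Peaks overlapped the bodies of Peg13 and Nnat, 2 each, whereas Mcts2 and Zrsr1 had 0 over their own bodies. The peaks in H13 and Commd1 are thus read as those of hosts, like the Herc3 peak, though 1 H13 peak overlaps the Mcts2 promoter window. In the Hmx1 comparison their log2 fold changes ran from -0.39 to 1.30 with a median of -0.11, against a median of -0.01 over all tested peaks. Of the 16, 0 were called by edgeR or DESeq2, where edgeR called 0.0282% of all tested peaks, so little is read from the 0. An unadjusted p under 0.05 in edgeR was found for 0, against 8.95% of all tested peaks. These values are from the fit with the other deletions pooled. With 3 genotype terms edgeR called 2 of the 16, both higher in Hmx1, and 218 peaks over the whole table. The strongest of these peaks, at the start of Inpp5f, had means of 33.5, 36.3 and 33.2 CPM in the Hmx1, Hoxa and Wnt6 deletions. The peak at the H13 start had 4.55, 6.18 and 4.75 CPM and a peak that ends just before the Mcts2 start, at 152686860 to 152687115 within H13, had 3.04 and 1.97, 2.94, 0.879 and 2.19, and 1.54 and 2.27 CPM in the libraries of the same deletions. The stronger Nnat peak had 3.00, 3.42 and 4.04 CPM, and the Commd1 peak ranged from 1.54 to 1.69 CPM in the Hmx1 libraries, from 1.80 to 2.94 in the Hoxa libraries and from 0.823 to 1.18 in the Wnt6 libraries. At Peg13 and Nnat, which had peaks over their own bodies, levels in the Hmx1 libraries were 2.20 CPM or more. At the peak before the Mcts2 start they were 1.97 CPM or more, against 0.315 and 0.338 at Nap1l5.

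In the Hoxa deletion a different member of this list was low. Both peaks over Peg13, a non-coding transcript inside Trappc9 on chromosome 15, were called lower in Hoxa than in Wnt6. The stronger one (72809930 to 72810752) had 0.235, 0.229 and 0.902 CPM in the Hoxa libraries, 8.13 and 8.36 in the Wnt6 libraries and 8.28 and 8.70 in the Hmx1 libraries. Hoxa minus Wnt6 came to -4.20 on the log2 scale at this peak (edgeR adjusted p = 7.18e-17) and to -3.84 at the other, at 72809218 to 72809605 (edgeR adjusted p = 5.33e-09). Nap1l5 in the same Hoxa libraries stood at 23.7 to 29.2 CPM, its highest levels in the table.

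Over 47 further imprinted genes, of which 45 had a peak (162 peaks), 0 peaks were called in the Hmx1 comparison by edgeR or DESeq2. Over all tested peaks edgeR called 0.0282%. Of the 162 peaks, 9 had an unadjusted p under 0.05 (5.56%, against 8.95% of all tested peaks). The median log2 fold change of the 162 was 0.06. With 3 genotype terms in place of the pooled fit, edgeR called 5 of the 162, all higher in Hmx1, and 218 peaks over the whole table. For Hoxa against Wnt6, 7 were called, or 9 of 178 (5.06%) with the intronic pairs, against 1.23% of all tested peaks. Of the 9, 8 were lower in Hoxa, a direction in which 0.772% of tested peaks were called. The lists were chosen with earlier results of these data known, and peaks of the same gene are not independent, so nothing is read from these shares. The 7 were 4 peaks at Mest, a paternally expressed gene also on chromosome 6, at -2.66 to -4.44, 2 at H19, a maternally expressed non-coding RNA, at -1.67 and -3.29, and 1 at Kcnq1ot1, a paternally expressed antisense transcript, at 1.80 (edgeR adjusted p = 0.0274). DESeq2 called 7 of the 178 peaks, all lower, 1 among the intronic pairs and 6 among the others. The strongest Mest peak had 34.4 CPM in the Hmx1 deletion, 4.32 in the Hoxa deletion and 27.7 in the Wnt6 deletion. The other 3 Mest peaks had means of 0.510, 0.322 and 0.323 CPM in the Hoxa deletion, and the Peg13 peaks 0.198 and 0.456. The Nap1l5 peak, which is wider, had 0.326 CPM in the Hmx1 deletion. Per kb of peak these were 0.924, 0.992 and 0.852 CPM at Mest and 0.511 and 0.554 at Peg13, against 0.309 at Nap1l5. In the Wnt6 deletion the same Mest and Peg13 peaks had means of 2.87 to 8.25 CPM, against 18.0 at Nap1l5. The direction at Nap1l5 for Hoxa against Wnt6, higher in Hoxa, was opposite to that of the 8 peaks called lower at Peg13, Mest and H19.

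**Figure D4:**
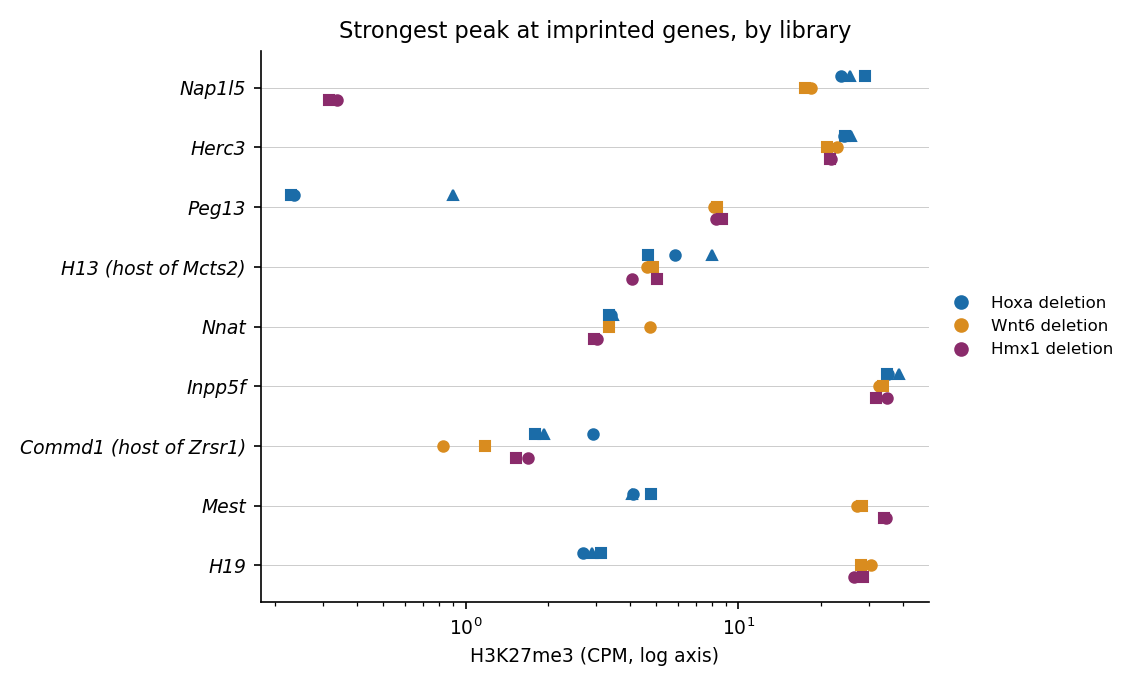
H3K27me3 in CPM (log axis) in each library at Nap1l5, Herc3 and the strongest peak of other imprinted genes or their hosts, coloured by deletion and shaped by replicate number as in the plot of the 3 peaks. The Hmx1 libraries stand apart at Nap1l5, at 0.315 and 0.338 CPM, and the Hoxa libraries stand apart at Peg13, Mest and H19.

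Peaks near the relatives of both genes showed no change of this size. Peaks within 20 kb of the nucleosome assembly genes Nap1l1 to Nap1l4 and the ubiquitin ligase genes Herc1, Herc2, Herc4 and Herc6 numbered 20. Some of the 20 lie over other genes, among them Phlda1, Slc22a18, Fbxl22 and Phlda2, and the Phlda2 peak is also in the imprinted list. In the Hmx1 comparison the log2 fold changes of the 20 went no lower than -1.29, with a median of -0.06. Of the 20, 0 were called by edgeR or DESeq2, where edgeR called 0.0282% of all tested peaks. An unadjusted p under 0.05 was found for 4 (20%, against 8.95% of all tested peaks). For Hoxa against Wnt6, 0 were called with the fold minimum by edgeR or DESeq2, where edgeR called 1.23% of all tested peaks. Here 4 had an unadjusted p under 0.05 (20%, against 16.6%). Without the minimum 1 of 20 passed, against 5.2% of all tested peaks. It was a peak within 20 kb of the X-linked Nap1l2 that overlaps no gene body, higher in Hoxa by 0.55 (edgeR adjusted p = 0.0250). The peak over Nap1l2 itself differed by 0.08 (edgeR adjusted p = 0.934).

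Few peaks varied over the 7 libraries as the Nap1l5 peak did. Among 4616 peaks whose deletion means spanned at least 1 on the log2 scale, 24 had a Pearson r over 0.95 with it, measured on log2 CPM over 7 libraries; the value is a description, since the points share libraries and 1 difference, Hmx1 against the rest, sets most of it. The most alike was the peak at 35402378 on chromosome 5, next to the Hmx1 stretch (r = 0.986), with means of 4.95, 31.6 and 31.3 CPM in the Hmx1, Hoxa and Wnt6 deletions. Next were a peak in Aox2, an aldehyde oxidase gene (r = 0.980), another beside the Hmx1 stretch at 35403298 (r = 0.979), 1 near Gm11827 (r = 0.976) and 1 in Tmem260 (r = 0.975). The Aox2, Gm11827 and Tmem260 peaks were weak, at 0.712, 0.732 and 1.18 CPM in the Hmx1 deletion against 1.69, 2.13 and 3.13 in the Hoxa deletion. Among the peaks called in the Hmx1 comparison and away from the stretch, those in Zdhhc14 (r = 0.964) and Repin1 (r = 0.963) were most alike, and the Repin1 peak, on chromosome 6 too, kept 15.2 CPM against 45.3 and 38.9. The Herc3 peak had r = 0.638 with the Nap1l5 peak.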

How the data were processed

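The H3K27me3 values are read counts that the authors deposited as 1 table of 74458 shared, non-overlapping peaks (median width 476 bp) in mm10, with 7 H3K27me3 columns. Bowtie2, Trimmomatic, SAMtools, Picard, MACS2 and deepTools are named in the submitters' processing notes, without versions; how the shared peak list was made, and how reads that match more than 1 place were counted, is not given in the sources used here. The 7 IgG libraries were not analysed here. The study states 3 replicates per deletion, and the table holds 2, 3 and 2 columns for the Hmx1, Hoxa and Wnt6 deletions; each was matched to its library by name.

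Counts were scaled by TMM and fitted in edgeR 4.0.16 (R 4.3.3) with filterByExpr by genotype, which left out 17 peaks and kept 74441, and the quasi-likelihood test with Benjamini-Hochberg adjustment over all of them. Hoxa against Wnt6 used 3 genotype terms; Hmx1 was set against the other deletions pooled. A call needed an absolute log2 fold change over 1 and an adjusted p under 0.05. Fitted fold changes used edgeR's prior count of 0.125, and log2 CPM for correlations a prior count of 2. Intervals were exact (Poisson and conditional binomial, scipy 1.17.1), at the 95% level. DESeq2 1.42.0 and other alternatives were tried. The fitting script was tested on simulated data.

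All peaks of the locus are named. Of the imprinted lists, called peaks and the strongest peak of each intronic pair are named. Mcts2 was added for its promoter, and the next strongest Inpp5f peak for its level. The 5 peaks with the largest correlation with the Nap1l5 peak outside the locus and the deleted stretches are named, as are the leading ones among peaks called in the Hmx1 comparison. A stretch was the longest run of adjacent peaks under 10% of their level in the other deletions. Members and gene lists were chosen with earlier results of these data known. Gene bodies and promoters are from RefSeq (GRCm38.p6); exon positions were not used here.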

Additional observations from a re-analysis of the deposited data

How the results depend on the processing

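Of 127 values recomputed under alternatives, 106 kept their direction and their side of the threshold or stayed within the limits set for them, 18 moved, 3 lost significance and 0 reversed. At the Nap1l5 peak, the Hmx1 log2 fold change of -6.13 was -6.40 with counts downsampled to the smallest library, -6.33 against the Hoxa deletion alone, -5.78 against the Wnt6 deletion alone and -5.75 with a prior count of 2, and leaving out 1 library at a time gave -6.22 to -6.02. The Hoxa minus Wnt6 difference of 0.56 ran from 0.46 to 0.61 with 1 library left out and lost significance without Hoxa replicate 2, Wnt6 replicate 1 or Wnt6 replicate 2. Without the fold minimum, 1 peak of the locus was called for Hoxa against Wnt6 in place of 0, and 16 imprinted peaks in place of 9 (8 to 9 with 1 library left out). Over the whole table, the Hoxa against Wnt6 calls numbered 919, and 399 with the median of each chromosome removed, 444 in DESeq2, 3874 without the fold minimum and 596 to 963 with 1 library left out, fewest without Wnt6 replicate 1. The Hmx1 calls numbered 21, and 50 in DESeq2, 218 with 3 genotype terms, 1268 against Hoxa alone, 70 against Wnt6 alone and 18 to 92 with 1 library left out, 79 without Wnt6 replicate 1 and 92 without Wnt6 replicate 2. Imprinted peaks called in the Hmx1 comparison numbered 0, and 7 with 3 genotype terms, all higher in Hmx1, and 11 against Hoxa alone, 9 of them higher. The causes of these shifts were not tested. Deviations of same-numbered libraries from their deletion means had correlations of -0.04 to 0.08, and the main fits used no pairing. In groups of 2 libraries these deviations mirror each other, so the check cannot exclude a shared batch. Replicate 1 had the fewest counts and replicate 2 the most in each deletion. With the replicate number as a block the Nap1l5 difference between Hoxa and Wnt6 was 0.58 (edgeR adjusted p = 0.00471), with 818 calls over the table and 20 for Hmx1. The residual level at Nap1l5 rests on 10 counts in 2 libraries, which limits its precision, and no library tells the parental copies apart.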
